A study of Mus musculus with 6 samples.

Results

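The inducible antimicrobial genes of the intestinal epithelium were followed by name, as a set of 9: Reg3a, Reg3b, Reg3g, Reg1, Retnlb, Saa1, Duox2, Duoxa2 and Nos2. Of these, 7 had a row in the deposited table whose gene could be settled, among 12350 rows with a settled gene and 22700 rows in all. Retnlb and Saa1 were not analysed here. RNA of the middle small intestinal mucosa of C57BL/6 mice was sequenced from 3 mice without alk-SMase (KO, named K79S, K82S and K86S) and 3 wild type mice (WT, named W83S, W89S and W90S), each mouse giving 1 library. The KO mice lack exon 2 of Enpp7, the gene of alkaline sphingomyelinase, through Cre and loxP. The mice of both genotypes ate standard pellets, no treatment is named for them, and neither their age nor the promoter that drove Cre is stated in the sources used here. Values are FPKM, which divide the fragments of a gene by its transcript length and by the mapped reads of the library, so levels of different genes are compared per length. The question was how far these genes differed between the KO and WT mice, beside the spread between mice of the same genotype.

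The gut epithelium holds microbes away from its surface with secreted proteins whose genes are switched on by bacteria and by cytokines. Reg3b and Reg3g are small secreted lectins that damage bacteria, and their transcription rises after bacterial signals through Myd88 and after interleukin 22 through Stat3. Duox2 is an oxidase that makes hydrogen peroxide at the apical membrane and needs its maturation factor Duoxa2, while Nos2 is the inducible nitric oxide synthase.

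The 4 Reg genes described here lie in a cluster on chromosome 6 of the mm10 genome (GRCm38), where Reg3b, Reg3d, Reg3a, Reg2, Reg1 and Reg3g span 98216 bp from 78370657 to 78468872 in the GENCODE M21 annotation. Reg3b lies from 78370657 to 78373466, Reg3a from 78380709 to 78383827 and Reg1 from 78422711 to 78428667 on the plus strand, and Reg3g lies from 78466269 to 78468872 on the minus strand. Duox2 (chromosome 2, 122279247 to 122298449, minus strand) and Duoxa2 (122298900 to 122302885, plus strand) are divergent neighbours with 450 bp between them. Nos2 lies on chromosome 11 from 78920787 to 78960254 on the plus strand. Of the 50-base words in the annotated transcripts of Reg3a, Reg3b, Reg3g and Nos2, 0 occur in a transcript of another gene. The share was 3.65% for Reg1, 6.05% for Duox2, all of these with Duox1, and 41.1% for Duoxa2, all with Duoxa1. Duoxa1 overlaps Duoxa2 by 695 bp on the opposite strand, so part of the Duoxa2 level is uncertain where reads were counted without strand.

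The upstream sequences of 4 of the genes are shown because Reg3b with Reg3g, and Duox2 with Duoxa2, had like orders of level across the mice, while Reg3a of the same family did not. They are the RefSeq bases (GRCm38.p6) that end just before the annotated start, 5′ to 3′ on the strand of the gene, and leave out annotated exons. Capitals mark whole matches to TATAAA on either strand and to TTCNNNGAA, the palindromic core bound by Stat proteins.
Reg3b: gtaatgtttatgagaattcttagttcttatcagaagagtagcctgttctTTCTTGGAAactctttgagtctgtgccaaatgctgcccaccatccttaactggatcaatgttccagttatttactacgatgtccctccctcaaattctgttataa
Reg3g: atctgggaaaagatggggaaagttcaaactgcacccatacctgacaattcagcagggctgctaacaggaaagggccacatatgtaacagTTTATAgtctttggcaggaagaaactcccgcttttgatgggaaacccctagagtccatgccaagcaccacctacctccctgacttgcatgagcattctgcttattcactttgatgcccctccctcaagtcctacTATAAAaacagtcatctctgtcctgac
Reg3a: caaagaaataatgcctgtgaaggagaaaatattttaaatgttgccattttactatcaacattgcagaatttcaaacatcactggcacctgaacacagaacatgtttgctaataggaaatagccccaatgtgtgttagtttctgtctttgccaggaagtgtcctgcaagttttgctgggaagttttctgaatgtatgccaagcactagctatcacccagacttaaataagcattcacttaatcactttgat
Duoxa2: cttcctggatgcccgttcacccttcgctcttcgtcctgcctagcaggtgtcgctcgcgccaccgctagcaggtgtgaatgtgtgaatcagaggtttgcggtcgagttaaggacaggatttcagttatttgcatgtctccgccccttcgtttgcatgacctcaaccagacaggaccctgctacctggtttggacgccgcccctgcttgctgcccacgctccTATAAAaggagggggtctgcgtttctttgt
The positions are chr6:78370707-78370860 (plus strand) for Reg3b, chr6:78468875-78469124 (minus strand) for Reg3g, chr6:78380459-78380708 (plus strand) for Reg3a and chr2:122298650-122298899 (plus strand) for Duoxa2. The Reg3b stretch of 154 bases lies between an alternative first exon and the main first exon, and its nearest base is 25 bases before the RefSeq start. When it was aligned to the Reg3g sequence with free ends, 97 of the 154 bases (63.0%) were identical, against 77 (50.0%) with Reg3a and 14 (9.09%) with Duoxa2. These shares are of all 154 bases, of which 154, 124 and 23 were aligned. The Reg3a and Reg3g sequences had 138 identical among 193 aligned bases, so Reg3a was not set apart from the other lectins here. Of the 9 genes, 7 had a window of 250 bases in the RefSeq table, 6 of them with a settled row. TATAAA was found in 4 of these 6 windows, with its first base 29 bases before the start of Reg3b, 27 before that of Reg3g, 30 before that of Reg1 and 30 before that of Duoxa2, and it occurs in 12.4% of all 32851 windows. TTCNNNGAA was found in 1 of the 6, 129 bases before the start of Reg3b, and occurs in 7.02% of all windows. The TATAAA of Reg3b runs into an annotated exon and is therefore not whole in the stretch shown, and Reg3g held another match 161 bases before its start. That of Reg1 lies wholly within an annotated Reg1 exon, which covers the last 53 bases of its window. The Duox2 window is exonic at 222 of its 250 bases. A match of letters is a description and no measured site.

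Some libraries stood apart before any comparison of these genes. W83S (WT) was high for a gastric and an acinar list. The 7 settled genes of a gastric list of 10 summed to 41019 FPKM there (0 to 5.72 FPKM in the other libraries). The 5 settled genes of an acinar list of 12 summed to 10240 FPKM (13.2 to 84.2 FPKM elsewhere). Clps alone made up 10194 FPKM of that acinar sum, and the next gene, Amy2a5, 20.1 FPKM. Genes weak in W83S could not be settled, so genes near 0 elsewhere were followed only where W83S held them. K79S (KO) had 0.0279 FPKM of the Y-linked gene Ddx3y, against 2.93 to 4.01 FPKM in the other 5 libraries, and Eif2s3y was listed at 0 in K79S alone. K82S (KO) had the lowest sum of 8 proximal small intestinal genes (1132 FPKM, against 1548 to 6151 FPKM) and the highest sum of the distal genes Slc51a and Slc51b (1600 FPKM, against 289 to 853 FPKM), and 3 of the 5 distal genes were not analysed here. All 8 enterocyte markers were settled and abundant, summing to between 24418 FPKM (K82S) and 39729 FPKM (K86S). In KO mice the targeted gene Enpp7 stood at 605 (K79S), 129 (K82S) and 670 FPKM (K86S), and in WT mice at 406 (W83S), 667 (W89S) and 495 FPKM (W90S). The FPKM covers all exons together and cannot check the deletion of exon 2. The columns summed to 393152 to 495362 FPKM.

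Reg3b was the most abundant of the 7 genes in each library, followed by Reg3g. In KO mice Reg3b stood at 2223 (K79S), 9088 (K82S) and 1221 FPKM (K86S), and in WT mice at 3754 (W83S), 3588 (W89S) and 2308 FPKM (W90S). It ranked between 3 and 45 among all rows of a library, and in K82S only 2 rows were higher. The lowest and the highest value were both those of KO mice, 7.44-fold apart, and the WT values lay between them.

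In KO mice Reg3g stood at 729 (K79S), 2513 (K82S) and 570.4 FPKM (K86S), and in WT mice at 1204 (W83S), 947 (W89S) and 1105 FPKM (W90S). The WT libraries lay close together (1085 ± 130 FPKM, SD, n = 3), while the KO libraries were spread on both sides of them (1271 ± 1079 FPKM). K82S was again the highest and K86S the lowest library, 4.41-fold apart. Within a library Reg3b was 2.09 to 3.79 times Reg3g, a ratio of 2.94 ± 0.744 in KO and 3.0 ± 0.856 in WT (SD, n = 3). Over the 6 libraries this ratio varied 1.81-fold, beside 7.44-fold for Reg3b and 4.41-fold for Reg3g. Without K82S the ranges were 1.81-fold for the ratio, 3.07-fold for Reg3b and 2.11-fold for Reg3g, and within the WT mice the ratio (1.81-fold) varied more than either gene (1.63-fold and 1.27-fold).

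Reg3a, the next lectin of the family, followed another order. In KO mice Reg3a stood at 84.0 (K79S), 62.9 (K82S) and 116 FPKM (K86S), and in WT mice at 82.1 (W83S), 90.9 (W89S) and 149 FPKM (W90S). Here K82S was the lowest library, and the range was the narrowest of the 7 genes (2.37-fold). The ratio of Reg3b to Reg3a therefore ran from 10.6 in K86S to 144 in K82S.

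Reg1, a relative first known from the exocrine pancreas, varied most. In KO mice Reg1 stood at 64.3 (K79S), 39.4 (K82S) and 159 FPKM (K86S), and in WT mice at 429 (W83S), 9.40 (W89S) and 184 FPKM (W90S). Both the highest value (W83S) and the lowest (W89S) were from WT mice, 45.6-fold apart, and the KO libraries lay between them. W83S is the library with the high acinar sum given above, nearly all of it Clps, and its part in the Reg1 level was not tested. In the other libraries the acinar list, mostly Clps, summed to 13.2 (K79S), 49.9 (K82S), 26.6 (K86S), 77.1 (W89S) and 84.2 FPKM (W90S).

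**Figure D1:**
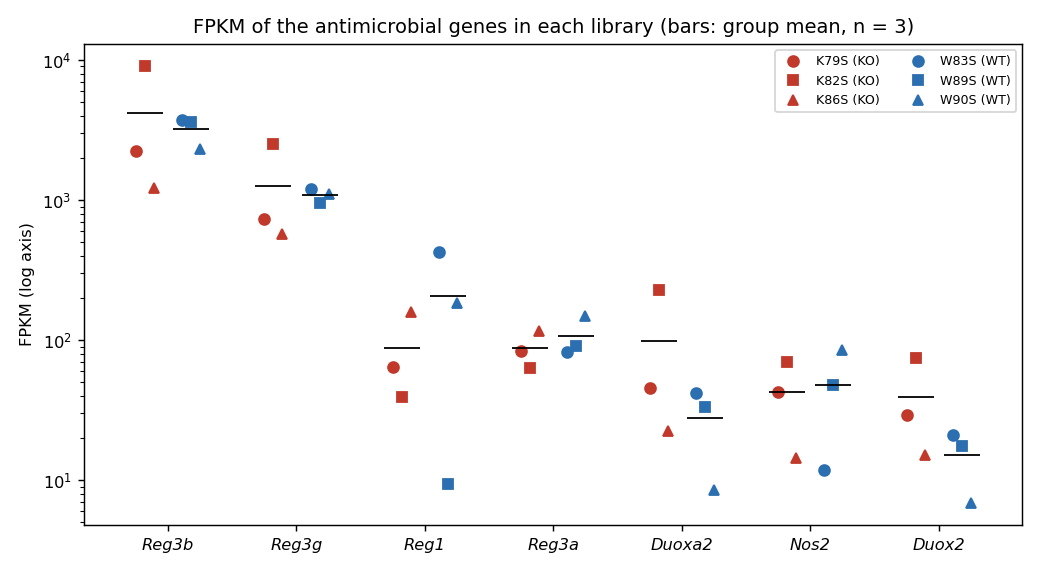
FPKM (log axis) of the 7 antimicrobial genes, ordered by mean level, in each of the 3 KO libraries (red) and 3 WT libraries (blue), with black bars for the group means. The 2 genotypes overlap for each gene, and K82S is the highest library for Reg3b, Reg3g, Duoxa2 and Duox2.

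Duox2 and its maturation factor kept the same order over the 6 libraries. In KO mice Duox2 stood at 29.1 (K79S), 74.4 (K82S) and 15.2 FPKM (K86S), and in WT mice at 21.0 (W83S), 17.6 (W89S) and 6.87 FPKM (W90S). In KO mice Duoxa2 stood at 45.8 (K79S), 227 (K82S) and 22.4 FPKM (K86S), and in WT mice at 42.0 (W83S), 33.5 (W89S) and 8.56 FPKM (W90S). K82S was the highest library and W90S the lowest for both, 10.8-fold apart for Duox2 and 26.5-fold for Duoxa2. In K79S and K82S both genes lay above all WT libraries, whereas K86S lay below W83S and W89S. Duoxa2 was 1.25 to 3.05 times Duox2, and the ratio was largest in K82S. Among 12048 other settled genes that passed the filter, the one most like Duox2 in log2(FPKM + 1) was Duoxa2 (Pearson r = 0.991 over the 6 libraries, a description with no test), and Trmt12 was also among the closest, at 0.986.

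In KO mice Nos2 stood at 42.9 (K79S), 69.8 (K82S) and 14.4 FPKM (K86S), and in WT mice at 11.8 (W83S), 48.0 (W89S) and 84.7 FPKM (W90S). Its highest library was W90S, which was the lowest for Duox2 and Duoxa2, and its lowest was W83S. The 7.17-fold range was as wide within the WT mice as over all mice.

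**Figure D2:**
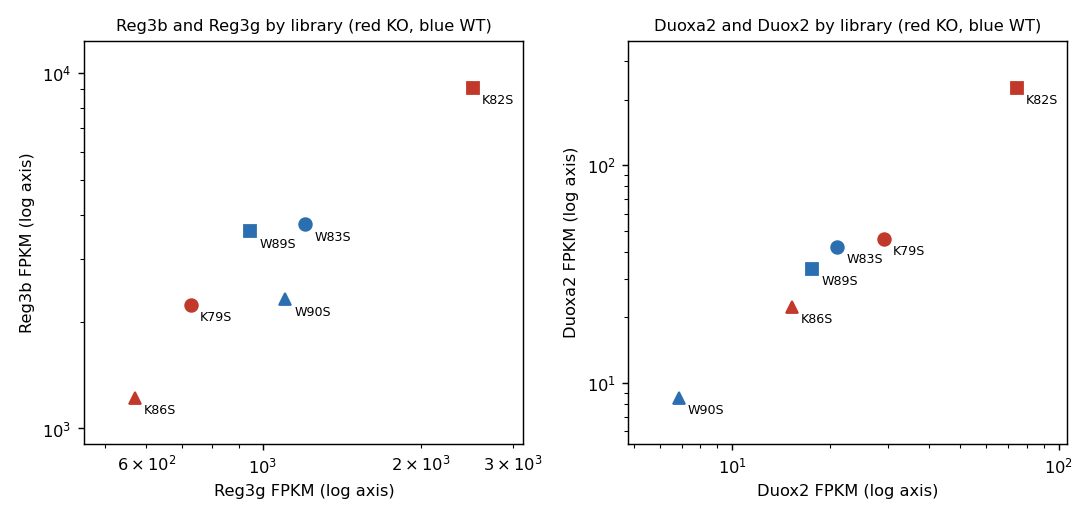
FPKM of Reg3b against Reg3g (left) and of Duoxa2 against Duox2 (right), on log axes, with 1 point per library (red KO, blue WT). K82S lies at the upper right in both panels, and the lowest point is K86S for the lectins and W90S for the oxidase pair.

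In order of mean FPKM the genes were Reg3b (3697), Reg3g (1178), Reg1 (147), Reg3a (97.4), Duoxa2 (63.2), Nos2 (45.3) and Duox2 (27.4). Reg3b exceeded Reg3g in 6 of 6 libraries, although their ranges overlapped, and all Reg3g values lay above all values of the 5 genes below it. Reg1 exceeded Reg3a in 3 of 6 libraries, Duoxa2 exceeded Nos2 in 4 of 6 and Nos2 exceeded Duox2 in 3 of 6, so these neighbours were not apart by more than their spread. Together the 7 genes made up 0.503% (K86S) to 2.59% (K82S) of the summed FPKM of a library.

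The genes most like the others, by Pearson r of log2(FPKM + 1) over the 6 libraries, mostly had levels of a few FPKM. For Reg3b they were Gm7979 (0.989), Gtf2f1 (0.988) and Ubtd2 (0.987), and for Reg3g they were Gm5910 (0.987), Psmc2 (0.986) and Ctps2 (0.985). Those of Reg3a were Amacr (0.995), 2810408I11Rik (0.993) and Tnfaip3 (0.990), and those of Reg1 were Ap1s3 (0.996), Gm18562 (0.989) and Herc1 (0.985). Duoxa2 was followed by Duox2 (0.991), Trmt12 (0.984) and Pik3ca (0.979), and Nos2 by Kxd1 (0.992), Bfsp1 (0.991) and Cdk5rap1 (0.972). These values come from 6 libraries and 12048 candidates, and describe no more than a like order of the libraries.

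For the comparison of genotypes, the 13089 rows that reached 1 FPKM in at least 2 libraries were kept, and their log2(FPKM + 1) values were fitted with limma (Benjamini-Hochberg adjustment). All 7 genes passed the filter. A gene was called at an adjusted p-value under 0.05 with a fold change above 1.5 or below 2/3. With limma 0 of the 7 genes were called, where 1 of all 13089 rows was (0.00764%), and 0 of the 7 had an unadjusted p-value under 0.05, as 12.5% of all rows had. None of the 7 had KO and WT values that did not overlap, against 17.2% of all rows. The median log2 fold change of the 7 genes was -0.090, beside -0.061 over all rows, and 2 of them were above 0, beside 5538 of 13089 rows.

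Duox2 and Duoxa2 had the 2 positive values. Duox2 averaged 39.6 ± 31.0 FPKM in KO mice and 15.2 ± 7.38 in WT mice (SD, n = 3), which gave a log2 fold change, KO against WT, of 1.17 (standard error 0.63, 95% confidence interval -0.33 to 2.67, adjusted p = 0.441 from limma). Duoxa2 averaged 98.4 ± 112 FPKM in KO mice and 28.0 ± 17.4 in WT mice, with a log2 fold change of 1.38 (standard error 0.93, interval -0.84 to 3.60, adjusted p = 0.535 from limma). A two-sided exact permutation test gave p = 0.3 for Duox2 and p = 0.4 for Duoxa2, and 3 libraries against 3 cannot go below p = 0.1. Without K82S the log2 fold changes were 0.58 for Duox2 and 0.45 for Duoxa2. Without K86S they were 1.69 and 2.09 (adjusted p = 0.568 for both from limma). In that fit 1 of the 7 genes, Duox2, had an unadjusted p-value under 0.05, as had 1118 of 12951 rows.

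The lectins had values near 0 with wide intervals. Reg3b averaged 4177 ± 4282 FPKM in KO mice and 3217 ± 791 in WT mice, and Reg3a 87.5 ± 26.5 and 107 ± 36.3 FPKM (SD, n = 3). The log2 fold change was -0.11 for Reg3b (standard error 0.71, interval -1.81 to 1.59), -0.090 for Reg3g (0.55, -1.39 to 1.22) and -0.28 for Reg3a (0.31, -1.04 to 0.47), with adjusted p-values of 0.955, 0.954 and 0.716 from limma. Exact permutation tests gave p = 0.9, 1 and 0.5. For Reg3b and Reg3g the mean FPKM was higher in KO while the mean log2 value was lower, since K82S alone raised the mean.

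Without K82S the intervals of both abundant lectins lay below 0, which makes 2 of 7 genes at an unadjusted p-value under 0.05, where 25.7% of all rows were (21.6% lower in KO). Reg3b had a log2 fold change of -0.93 (interval -1.84 to -0.022, unadjusted p = 0.0462, adjusted p = 0.186 from limma) and Reg3g one of -0.74 (interval -1.27 to -0.21, unadjusted p = 0.0145, adjusted p = 0.0939 from limma). Neither was called, while 9.28% of all rows were called in the same fit without K82S. When W83S was left out as well, the values were -0.80 for Reg3b and -0.66 for Reg3g (adjusted p = 0.361 and 0.217 from limma), where 8.88% of all rows were called.

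Reg1 gave the least precise comparison of the 7 genes, and that of Nos2 was wide as well. Reg1 averaged 87.5 ± 63.0 FPKM in KO mice and 207 ± 211 in WT mice, with a log2 fold change of -0.32 (standard error 1.35, interval -3.55 to 2.90, adjusted p = 0.934 from limma, exact permutation p = 0.9). Without W83S its log2 fold change was 0.77, and without W89S it was -1.91 (adjusted p = 0.541 from limma). In the fit without W89S 1 of the 7 genes, Reg1, had an unadjusted p-value under 0.05, as had 1163 of 12875 rows. Nos2 averaged 42.4 ± 27.7 FPKM in KO mice and 48.2 ± 36.4 in WT mice, with a log2 fold change of -0.055 (standard error 0.82, interval -2.01 to 1.90, adjusted p = 0.981 from limma, exact permutation p = 0.9).

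**Figure D3:**
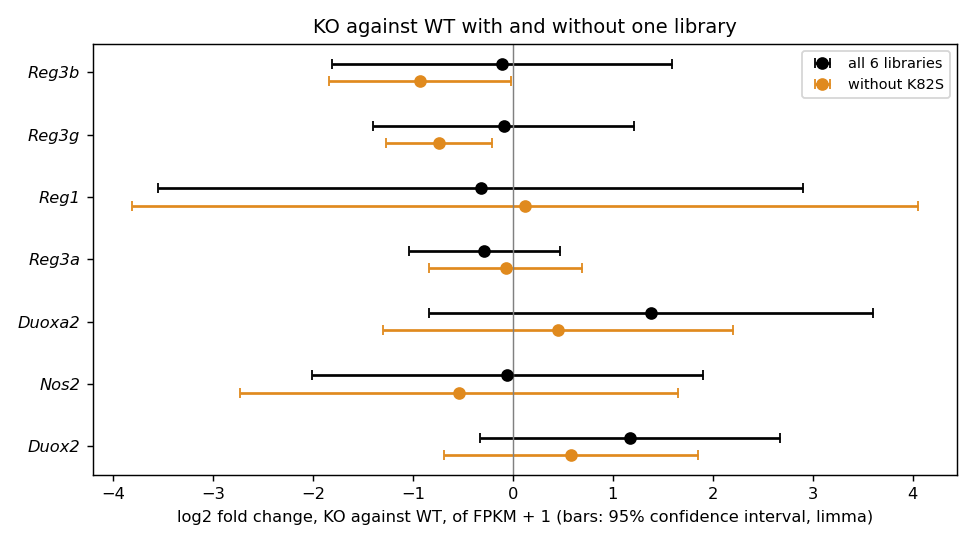
log2 fold change (KO against WT, from log2 of FPKM + 1), with its 95% confidence interval from limma, for the 7 genes with all 6 libraries (black) and without K82S (orange). Each black interval includes 0, and without K82S the intervals of Reg3b and Reg3g lie below 0, in a fit where 25.7% of all rows had an unadjusted p-value under 0.05.

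The spread between mice was large beside that of most rows tested, but this was not particular to these genes. The SD of log2(FPKM + 1) over the 6 libraries was 1.90 for Reg1, 1.5 for Duoxa2, 1.14 for Nos2, 1.08 for Duox2, 0.97 for Reg3b and 0.73 for Reg3g. These lie at percentiles 99.7, 99.1, 98.0, 97.7, 97.2 and 94.1 of the 13089 rows, and Reg3a (0.43) at percentile 75. Some genes of the cell type lists lay as high, such as Lyz1 (percentile 99.4), Muc2 (99.2) and Fabp1 (97.4). Others lay low, such as Apoa1 (13.8) and Stat6 of the transducers (11.5). In bulk RNA a change in the share of a cell type and a change in the RNA per cell cannot be told apart.

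Position along the gut and cell types moved between the libraries as well, and their part in the levels of the antimicrobial genes was not tested. Reg3b, Reg3g, Duox2 and Duoxa2 were all highest in K82S, the library with the most distal and the least proximal transcripts by the sums given above. Reg3a was highest in W90S and lowest in K82S, as was the proximal sum. Fabp1 made up most of that sum (5415 FPKM in W90S, 972 FPKM in K82S), and no other gene of the proximal list was highest in W90S. Gata4, Lct, Cyp2b10 and Pdx1 were also lowest in K82S, while Slc40a1, Cybrd1 and Onecut2 were not. The Paneth list, 9 of 10 markers settled, summed to 939 to 6892 FPKM in KO and 3315 to 13223 FPKM in WT, with its highest value in W89S, in which none of the 7 genes was highest. All 8 goblet markers were settled and summed to 7126 to 13854 FPKM in KO and 7437 to 13714 FPKM in WT, with K82S and W89S nearly level. Of 8 neutrophil markers 0 were settled, so none was analysed here.

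**Figure D4:**
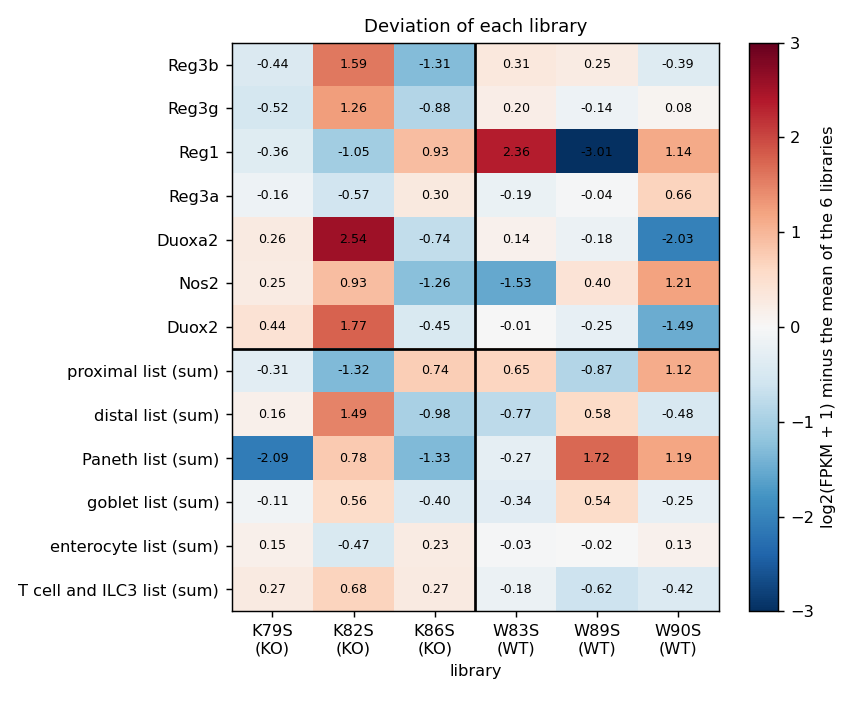
Deviation of each library from the mean of the 6 libraries, in log2(FPKM + 1), for the 7 antimicrobial genes (upper rows) and for the summed FPKM of marker lists (lower rows), with KO libraries to the left. K82S is high for Reg3b, Reg3g, Duoxa2, Duox2 and the distal list, and low for Reg3a and the proximal list (-1.32).

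The ligands, receptors and transducers that drive these genes were settled to different degrees. Of 12 cytokines only Il18 and Il33, both made by non-lymphoid cells of the mucosa, were settled, and Il22, Il17a and Il13 were not analysed here. Il18 averaged 26.2 ± 11.7 FPKM in KO mice and 48.9 ± 18.9 in WT mice, and Il33 7.58 ± 4.04 and 10.1 ± 4.14 FPKM (SD, n = 3). Neither was called by limma, at adjusted p-values of 0.405 and 0.720.

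Of 16 receptors and sensors for these signals, 10 were settled. In KO mice Il22ra1, the epithelial subunit of the interleukin 22 receptor, stood at 39.2 (K79S), 37.2 (K82S) and 31.5 FPKM (K86S), and in WT mice at 22.0 (W83S), 34.1 (W89S) and 30.9 FPKM (W90S). The lowest value was that of W83S, the groups overlapped, and KO exceeded WT by 0.32 ± 0.20 (SE) on the log2 scale, at an adjusted p of 0.511 in limma. Il17rc, a subunit of the interleukin 17 receptor, averaged 96.1 ± 30.0 FPKM in KO mice and 85.2 ± 26.2 in WT mice. Ifngr2 and Tnfrsf1a, receptors for interferon gamma and tumour necrosis factor, were the next most abundant, at 73.0 ± 8.31 and 73.1 ± 11.1 FPKM in KO mice and 68.4 ± 8.31 and 57.9 ± 3.15 in WT mice. Of the 10 receptors and sensors tested, 0 were called by limma. Only 1, Il13ra1, had an unadjusted p-value under 0.05, higher in KO, as 2.87% of all rows had.

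All 15 signal transducers were settled, and limma called 0 of them. In KO mice Stat3, which carries the interleukin 22 signal to the Reg3 genes, stood at 16.1 (K79S), 14.7 (K82S) and 13.8 FPKM (K86S), and in WT mice at 11.2 (W83S), 12.2 (W89S) and 9.97 FPKM (W90S). The lowest KO value exceeded the highest WT value, with a log2 fold change of 0.39 (standard error 0.14, unadjusted p = 0.0262, adjusted p = 0.393 from limma). Jak1 was without overlap too, and 5.90% of all rows tested lay higher in KO without overlap. The most abundant transducers, Nfkbia, Cebpb and Stat6, had log2 fold changes of -0.027, -0.033 and -0.013. In KO mice Socs3, the feedback inhibitor that Stat3 induces, stood at 52.9 (K79S), 33.6 (K82S) and 24.9 FPKM (K86S), and in WT mice at 21.2 (W83S), 29.3 (W89S) and 19.0 FPKM (W90S). These overlap (log2 fold change 0.62, adjusted p = 0.418 from limma). Il22ra1, Il13ra1, Stat3, Jak1 and Socs3 were chosen as examples after their values were seen.

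Markers of T cells averaged higher in KO than in WT, as Stat3 did, and their part in the Stat3 level was not tested. The 5 settled markers of a list of 8, Cd3e and Cd8a among them, summed to 138 to 184 FPKM in KO. In WT they summed to 74.5 to 101 FPKM. Of the 5, 4 had an unadjusted p-value under 0.05 in limma, higher in KO, as 2.87% of all rows had. Limma called 0 of the 5. Without K82S 1 of them was called, Cd3e, with a log2 fold change of 0.69 (adjusted p = 0.0367 from limma). In that fit 9.28% of all rows were called, and of those 1184 rows 51 were higher in KO and 1133 lower.

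Relatives and other inducible defence genes were not called either. Of 17 relatives 4 were settled: Cyba, a subunit of the NADPH oxidases, at 79.8 ± 16.2 FPKM in KO and 86 ± 25.3 in WT, Reg4, a lectin of secretory cells, at 29.4 ± 15.2 and 48.8 ± 9.70 FPKM, Noxo1 at 7.34 ± 4.22 and 8.39 ± 1.94 FPKM, and Noxa1. Reg4 was highest in W90S and lowest in K79S, an order not shared by Reg3b or Reg3g. Of 15 other inducible defence genes 9 were settled. Pigr, which carries IgA across the epithelium, averaged 841 ± 58.0 FPKM in KO mice and 754 ± 221 in WT mice. The Paneth cell products Itln1 and Ang4 averaged 218 ± 189 and 77.0 ± 65.3 FPKM in KO mice against 633 ± 345 and 208 ± 123 in WT mice (SD, n = 3). Itln1 had a log2 fold change of -1.70 and Ang4 one of -1.57 (adjusted p = 0.393 and 0.400 from limma). Without K82S and W83S, an alternative chosen after seeing the data, both were called, at -2.94 and -2.74 (adjusted p = 0.0335 and 0.0351 from limma). In that fit 8.88% of all rows were called, and 1069 of those 1111 rows were lower in KO. The sums of the Paneth list in the libraries left were 939 and 1588 FPKM for KO mice and 13223 and 9108 FPKM for WT mice.

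Over the 18 lists, which also hold Nos2, 94 genes were tested and 0 were called by limma. Without K82S 2 of 92 were called, where 9.28% of all rows were, and without K82S and W83S 12 of 89 were called, where 8.88% of all rows were. At an unadjusted p-value under 0.05, 10 were higher in KO and 0 lower, where 2.87% of all rows were higher and 9.64% lower. Quantile normalization changed these to 13 and 3 of the list genes. The 10 were 1 receptor, 2 transducers, 4 T cell genes and 1 each of the goblet, enterocyte and macrophage markers (Fcgbp, Anpep and Csf1r). The relatives, cytokines, other inducible genes and the Paneth, tuft, acinar, gastric, smooth muscle, proximal, distal and sex-linked lists had 0.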

How the data were processed

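RNA-seq libraries of 3 KO and 3 WT mice were grouped by the genotype in the sample labels, and 0 columns of the table could not be mapped. Reads were 50-base single-end, and after adapter removal (trim-galore) the authors ran HISAT2 against mm10, then StringTie, and deposited FPKM values. Tool versions, the annotation and the use of strand are not given in the sources used here, nor whether an edgeR normalization touched these values. FPKM keeps no read counts, so depth per value is unknown and precision rests on the 3 mice per group.

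Identifiers in the deposited table stand beside values of other genes. They were restored by rank: the identifier at a given rank of the K79S values beside it belongs to the row at that rank of W83S, with small offsets fixed by rank range, down to rank 12482 (0.954 FPKM in W83S). Tied and uncovered ranks were dropped. Genes weak in W83S are therefore missing. As a check, values with at most 6 decimals, the mark of a single transcript, made up 99.9% of 3624 genes with 1 annotated transcript and 5.73% of 8721 genes with several, against 33.7% and 34.1% as deposited. Of 22700 identifiers, 22680 had a symbol in GENCODE M21.

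Rows were compared on the log2(FPKM + 1) scale by the linear model of limma 3.58.1 under R 4.3.3, with moderated variances and a mean trend, using all rows with FPKM of at least 1 in at least 2 libraries. The script was tested on simulated data first. Single genes were also given exact permutation tests in scipy 1.17.1 (Python 3.11.15). The 9 genes, the 18 lists and the tests were chosen with earlier results of these data known. Genes named were the 9, those of the lists that were called, the 3 most abundant of each list (cell type and position lists are given here by their sums), the 3 genes most like each of the 7, and Enpp7. Values of some genes that this rule or the lists include are not reported here. Sequences are from RefSeq.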

Additional observations from a re-analysis of the deposited data

How the results depend on the processing

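Of 105 values of the 7 genes under 15 alternatives each, 90 kept their direction and 15 reversed, with adjusted p-values of 0.0939 to 0.999 from limma, and 0 of the 7 genes were called under any. Duox2, Duoxa2 and Reg3a kept their direction throughout. The reversed values came from quantile normalization (Reg3b 0.060, Reg3g 0.15, Nos2 0.074) and from leaving out libraries. With 1 library left out, the log2 fold change ran from -0.93 to 0.52 for Reg3b, -0.74 to 0.33 for Reg3g, -1.91 to 0.77 for Reg1, -0.83 to 0.56 for Nos2, 0.58 to 1.69 for Duox2 and 0.45 to 2.09 for Duoxa2. Without K82S and W83S together, an alternative chosen after seeing the data, that of Reg1 was 1.22 and that of Nos2 was -1.32. The cause of these moves was not tested, beyond the smaller number of libraries.

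Over all rows, 1 was called with all 6 libraries, 0 with pseudocounts of 0.1 and 0.01, 2 with array weights, 0 to 1184 with 1 library left out (1184 without K82S) and 1111 without K82S and W83S. Quantile normalization moved the median log2 fold change of all rows from -0.061 to 0.031, and among rows with an unadjusted p-value under 0.05 it moved the split from 376 higher and 1262 lower to 772 higher and 1003 lower. List genes with an unadjusted p-value under 0.05 and lower in KO numbered 0 with all libraries, 3 with quantile normalization, 13 with array weights, 0 to 15 with 1 library left out and 17 without K82S and W83S. No paired analysis was possible because the labels do not link any KO library to a WT library. The study describes its KO and WT tissues as matched pairs, but which mice were partners is not given in the sources used here.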

Other observations

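Outside the set, Ccl20, a chemokine that the epithelium releases after bacterial contact, stood at 0.156 (K79S), 2.17 (K82S) and 1.82 FPKM (K86S) in KO mice, and at 1.35 (W83S), 1.10 (W89S) and 18.7 FPKM (W90S) in WT mice. Fut2, the fucosyltransferase that interleukin 22 induces, had 6.90 FPKM in W83S and 0.115 to 1.57 FPKM in the other 5 libraries. W83S is the library with the high gastric list and Clps. Genes weak in W83S could not be settled, so a gene low elsewhere was followed only where W83S held it. Ubd, an interferon-induced ubiquitin-like gene, was lowest in W89S (7.95 FPKM) and highest in K82S (54.7 FPKM). These genes were chosen after their values were seen, and 0 of the 3 were called by limma (adjusted p = 0.625, 0.860 and 0.452).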
